A study of Rattus norvegicus with 8 samples.

Results

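Of 31 listed genes of cholesterol synthesis, uptake and handling, the platform annotation named 29, and all 29 gave usable signal in rat granulosa cells on 8 Affymetrix whole-genome arrays. The genes were chosen by name, and the 52 probe sets annotated with exactly 1 of them were taken out of 31099 in all. For Hmgcs1 and Npc1 no probe set was listed, and they were not analysed here. The 29 were 19 synthesis enzymes, 5 regulators of the SREBP transcription factors and 5 genes of sterol uptake, transport and storage.

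Granulosa cells are the somatic cells that surround the oocyte in the follicle. Per the series' design text, the immature rats were given eCG, a gonadotropin that starts follicle growth. At 24 h they received either anti-eCG antibody, which drives follicles into atresia, or pre-immune serum. Oocytes of the serum group (normal developmental competence) gave 30 to 50% development to term after embryo transfer, against 0% after antibody (poor developmental competence). The labels of the arrays differ only in a number, so no array could be placed in a treatment group and no comparison of treatments was made. Arrays are named by that number. Where 8 signals of a gene are listed, they follow the numbers: 2074, 2076, 2194, 2195, 2196, 2197, 2198 and 2199. The labels do not say how many animals each sample pools.

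Cells build cholesterol from acetyl-CoA by way of mevalonate and squalene. When sterols run low in the endoplasmic reticulum, the escort protein SCAP carries SREBP to the Golgi for cleavage, and the released factor switches on synthesis and uptake genes together. INSIG proteins hold SCAP back when sterols are plentiful. Granulosa cells, and the luteal cells they become, use cholesterol as the substrate of progesterone.

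Promoter sequence was examined because many of these genes, though not all, are known to share SREBP control, usually with the help of the factor NF-Y. A RefSeq window of 300 bases (250 before and 50 after the gene's start, build GRCr8) was found for 25 of the 29 genes and not for Pmvk, Fdft1, Sqle and Stard4. The NF-Y core CCAAT, on either strand, was in 20 of the 25 (80.0%), against 37.5% of all 33469 windows and 37.5% of the windows of the genes measured here. By role it was in 13 of 16 synthesis enzymes, 4 of 5 regulators and 3 of 4 handling genes. The sterol element in the short form CACNCCAC was in 3 of 25 genes (Acat2, Ebp and Insig1), against 5.8% of all windows. Its longer form TCACNCCAC, which contains the short one, was in 0 of 25, against 1.12%. Srebf1 has 2 windows and was counted once. A match is a run of letters and not a shown binding site.

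The stretches below come from members whose signals on arrays 2074 and 2076 stood apart, described further on, and from the carriers of the sterol motif. Each lies before the start site, reads 5′ to 3′ in the direction of the gene, and has CCAAT (or its reverse, ATTGG) and CACNCCAC (or its reverse) in capitals. Insig1, chr4:8057938-8058019 on the minus strand, holds both motifs, while Mvk and Nsdhl hold 5 CCAAT matches each and Msmo1 holds 3.
Insig1: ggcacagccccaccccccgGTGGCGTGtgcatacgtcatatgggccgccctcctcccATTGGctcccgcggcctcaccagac
Mvk (chr12:47819504-47819696, minus strand): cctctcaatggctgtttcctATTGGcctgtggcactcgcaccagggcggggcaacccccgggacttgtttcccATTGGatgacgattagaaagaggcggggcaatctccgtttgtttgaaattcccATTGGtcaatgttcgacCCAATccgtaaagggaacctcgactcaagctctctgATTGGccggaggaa
Mvd (chr19:67414985-67415029, minus strand): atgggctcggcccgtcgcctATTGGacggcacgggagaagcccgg
Lss (chr20:12118288-12118332, minus strand): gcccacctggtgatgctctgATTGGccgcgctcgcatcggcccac
Msmo1 (chr16:29746920-29747069, plus strand): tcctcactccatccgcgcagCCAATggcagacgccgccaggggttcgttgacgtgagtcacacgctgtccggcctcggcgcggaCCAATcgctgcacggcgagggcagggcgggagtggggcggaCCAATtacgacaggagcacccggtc
Nsdhl (chrX:155817132-155817319, plus strand): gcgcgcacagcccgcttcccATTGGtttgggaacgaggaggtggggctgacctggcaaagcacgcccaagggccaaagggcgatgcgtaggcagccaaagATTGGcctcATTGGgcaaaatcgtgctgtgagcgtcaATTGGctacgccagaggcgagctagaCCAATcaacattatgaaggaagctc
Ggps1 (chr17:55958515-55958559, plus strand): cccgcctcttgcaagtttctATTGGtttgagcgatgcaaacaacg
Ebp (chrX:16971243-16971401, plus strand): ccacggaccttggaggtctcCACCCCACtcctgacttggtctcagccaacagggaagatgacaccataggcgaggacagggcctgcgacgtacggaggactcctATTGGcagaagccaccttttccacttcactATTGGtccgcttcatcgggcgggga
Acat2 (chr1:50100733-50100780, plus strand): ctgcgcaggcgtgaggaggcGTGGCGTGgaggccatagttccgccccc
CCAAT stood in front of genes whose brightest probe set was high on arrays 2074 and 2076 (Insig1, Mvk, Mvd, Lss, Msmo1). It also stood in front of genes whose brightest probe set was low there (Nsdhl, Ggps1 and Sc5d, whose sequence is not shown). The next probe sets of those last genes did not put both arrays below all the others, though that of Ggps1 was also lowest on 2074. As 80.0% of the members' windows hold CCAAT, and stretches were printed only where a motif was found, this cannot show whether the motif goes with direction. Scap, also high there, has a window with none of these motifs, and Sqle has no window.

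Some facts of the arrays bear on all values. Signals are the deposited MAS5 intensities after scaling, and the brightest probe set stands for a gene. Levels of different genes are not compared, since probe sets differ in brightness for a given amount of RNA. Array 2195 had the lowest median rank correlation with the other arrays (0.78, against 0.83 to 0.85), and over all measured genes its mean log2 deviation from the gene's median was 0.17, against -0.09 to 0.08. The 3′ to 5′ signal ratio of the beta-actin control probe sets, which is larger where RNA is degraded or copied short, was 11.0 and 12.1 on arrays 2074 and 2076 and between 4.67 and 8.08 on the remaining 6. That of the Gapdh probe sets did not set the pair apart, with 6.66 and 6.07 there and 5.27 to 8.81 on the others, and that of hexokinase was 1.32 on 2074 and 8.6 on 2076, against 0.553 to 5.13. Of 10 granulosa markers 9 were measured and Fshr was not listed, and Foxl2, Inha, Inhbb, Nr5a2, Fst and Gja1 lay well above the floor on all 8 arrays. The markers were not even over the arrays, and for 5 of the 9 the second highest array was 2-fold or more above the second lowest. Cyp19a1, the aromatase gene, ran from 988 on array 2076 to 20565 on 2198, Hsd17b1 from 1069 on 2196 to 10799 on 2074, and Amh from 242, below the floor, on 2199 to 1058 on 2076. Among other cells, 3 of 6 theca, 6 of 10 leukocyte, 2 of 6 endothelial, 5 of 7 stromal, 2 of 8 oocyte and 3 of 5 erythroid markers were measured. Theca markers summed to 298 on array 2194 and 2369.6 on array 2198, with Cyp17a1 below the floor on 5 arrays, and leukocyte markers to 5351 on array 2197 and 9174 on array 2196. Erythroid markers reached 48902 on array 2074, with Hbb at 45683 there and 3706 to 12591 elsewhere. In whole-sample RNA, fewer cells of a type and less RNA per cell cannot be told apart.

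The spread of a gene is given as its inner range, the second highest array over the second lowest, so that 1 stray array at either end does not set it. By the full range 19 of the 29 members reached 2-fold, against 71.3% of all measured genes. By the inner range most cholesterol genes differed by less than 2-fold over the arrays. Their median inner range was 1.59-fold, from 1.22-fold in Msmo1 to 5.99-fold in Mvd, while the median of all 10501 measured genes was 1.71-fold. At least 2-fold was reached by 7 of the 29 (24.1%), and among all measured genes by 29.6%. These were Mvd, Mvk and Tm7sf2 among the enzymes, Srebf2, Insig1 and Scap among the regulators, and Abca1. By role that makes 3 of 19 synthesis enzymes, 3 of 5 regulators and 1 of 5 handling genes, with median inner ranges of 1.59-fold, 2.0-fold and 1.45-fold. Scap lay just inside the limit at 2.0-fold and Fdft1 just outside at 1.94-fold. The count was 4 without array 2076 and 5 without array 2074, and the share of all measured genes fell to 18.7% in both cases. With the mean of each gene's probe sets it was 6, as Scap and Abca1 left and Lss entered, against 25.9% of all measured genes. Over arrays 2194 to 2199 alone it was 3 (Mvd, Srebf2 and Abca1), where the share of all measured genes was 11.5%.

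**Figure D1:**
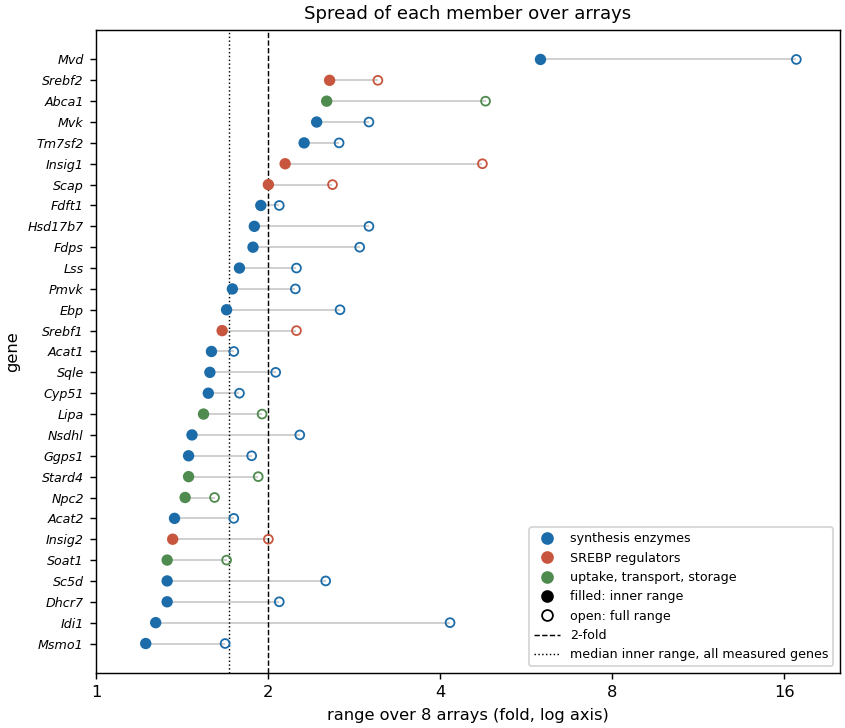
Range of each of the 29 cholesterol genes over 8 arrays, as fold on a log axis, with filled points for the inner range and open points for the full range, coloured by role. The dashed line marks 2-fold and the dotted line the 1.71-fold median inner range of all measured genes. Mvd has the widest inner range at 5.99-fold, and Idi1 has the largest gap on this axis between inner (1.27-fold) and full range (4.16-fold).

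The mevalonate arm makes the isoprenoid units from which sterols are assembled. Mvd, mevalonate diphosphate decarboxylase, was the most variable member. Its signals were 4109, 5287, 686, 2512, 1389, 1417, 1914 and 314. Both 2074 and 2076 were above every other array, and 2194 and 2199 were the lowest. Its inner range was larger than in 99.8% of measured genes, and its full range was at least 16.8-fold, since the value on array 2199 was below the floor. Leaving out array 2074 or 2076 gave 3.65-fold and leaving out 2194 or 2199 gave 2.96-fold, so Mvd passed 2-fold without any 1 array.

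Mvk, mevalonate kinase, gave 2556, 2785, 1546, 2293, 929.6, 1053, 1843 and 1583, an inner range of 2.43-fold, or 1.65-fold without array 2196 or 2197. As in Mvd, arrays 2076 and 2074 were the highest, but the lowest was 2196. Pmvk, the next kinase of the arm, gave 12729, 11478, 7342, 13608, 6095, 11945, 9746 and 8581 (1.73-fold), lowest on arrays 2196 and 2194. Mvk and Pmvk thus shared array 2196 as their lowest, while Mvd was lowest on 2199.

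Idi1, which interconverts the isoprenoid units, lay between 54635 and 91055 on 7 arrays and was low on 1. It gave 69369, 60380.1, 65697, 91055, 54635, 58879, 64398 and 21863, so that the inner range was 1.27-fold and the full range 4.16-fold. The second probe set of Idi1 also had its lowest value on array 2199, 19005 against 33208 to 60882 on the others. The low value on that array was therefore seen by both probe sets, and both were highest on array 2195.

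Fdps, farnesyl diphosphate synthase, gave 28639.6, 31054, 18141, 39275, 19912, 34058, 13576 and 19212, with an inner range of 1.88-fold. It was lowest on array 2198, where no other enzyme had its lowest value. Ggps1, which makes the branch product geranylgeranyl diphosphate, ran from 836 on array 2074 to 1560.1 on array 2195 with a median of 1265, and both 2074 and 2076 lay below the other 6. The thiolases at the entry of the pathway varied little. Acat2, the cytosolic one, ran from 16050.1 on array 2199 to 27877 on array 2198 with a median of 20844 (1.37-fold), and mitochondrial Acat1 from 2434 on array 2196 to 4247 on array 2076 with a median of 3142 (1.59-fold).

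In the sterol arm, which starts with squalene, Tm7sf2 varied most. Tm7sf2, a sterol C14 reductase, gave 3565, 1521, 1802, 3519.6, 1341, 3102, 2831 and 2656, an inner range of 2.31-fold, or 1.95-fold without array 2076 or 2196. Arrays 2074 and 2076 lay at opposite ends here, unlike in Mvd or Mvk. Fdft1, squalene synthase, gave 8346, 7935, 4858, 5359.6, 4297, 4287, 8943 and 5073 (1.94-fold), with 3 arrays at 7935 or above and 5 at 5359.6 or below. Sqle, squalene epoxidase and a slow step of the arm, ran from 7756 on array 2199 to 15987 on array 2074 with a median of 11278 (1.58-fold). Lss, which closes the ring to lanosterol, ran from 1959 on array 2194 to 4389 on array 2076 with a median of 2597 (1.78-fold). In both Sqle and Lss arrays 2074 and 2076 were the highest 2.

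Apart from Tm7sf2, the enzymes that trim lanosterol had inner ranges under 2-fold, from 1.22-fold in Msmo1 to 1.89-fold in Hsd17b7. Msmo1, the sterol C4 methyl oxidase, had the smallest inner range of all members at 1.22-fold, with 58344, 75975, 47784, 55544, 47856, 56687, 55697 and 45111. Only 3.64% of measured genes had a smaller one. Dhcr7, which makes cholesterol from its last precursor, ran from 15345 on array 2194 to 32129 on array 2074 with a median of 23302 (1.33-fold). Cyp51, the lanosterol demethylase, ran from 44895 on array 2074 to 79915 on array 2195 with a median of 53962 (1.57-fold). Ebp, a sterol isomerase, ran from 1501 on array 2199 to 4012 on array 2194 with a median of 3155 (1.69-fold). Hsd17b7, a sterol ketoreductase that can also act on oestrone, ran from 2459.9 on array 2196 to 7384 on array 2197 with a median of 4672 (1.89-fold). Nsdhl, a C4 decarboxylase, ran from 8015 on array 2074 to 18189.6 on array 2198 with a median of 11369.6 (1.47-fold), and Sc5d, a desaturase, from 7041 on array 2074 to 17711 on array 2198 with a median of 11752 (1.33-fold). Nsdhl and Sc5d thus had their lowest value on array 2074, where Mvd, Mvk, Sqle and Lss were high.

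**Figure D2:**
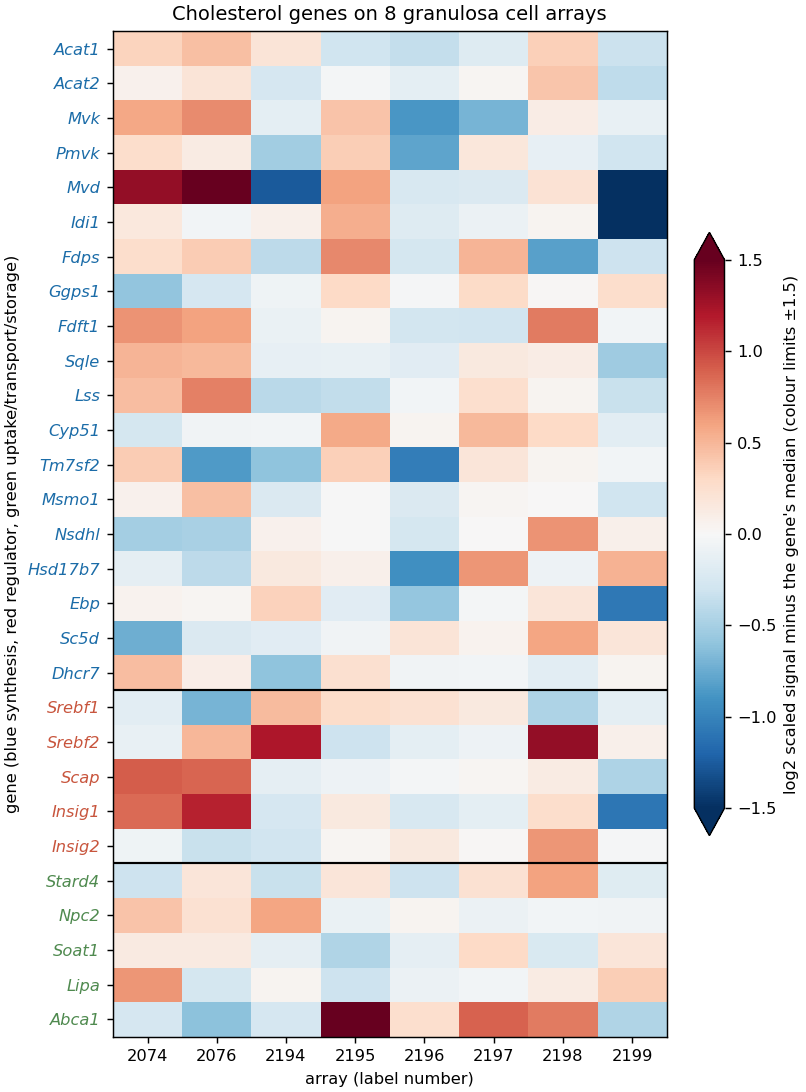
Log2 scaled signal of each of the 29 genes on each array minus the gene's median, in colour (red above, blue below, limits ±1.5), with lines between synthesis enzymes, regulators and handling genes. Mvd, Insig1 and Scap are red on arrays 2074 and 2076, Nsdhl and Ggps1 are blue there, and Idi1, Mvd, Ebp and Insig1 are darkest blue on array 2199.

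Among the regulators, Insig1 and Insig2 had unlike patterns. INSIG1 is itself a product of SREBP activity and closes its feedback loop. Insig1 gave 41803, 51914, 19556, 25776, 19734, 21017, 27925 and 10948, with an inner range of 2.14-fold (full range 4.74-fold). Arrays 2074 and 2076 were clear of the other 6, and array 2199 was the lowest. Without either of the pair the inner range was 1.42-fold. Insig2, the isoform whose gene depends less on SREBP, gave 2874, 2382, 2454, 3068, 3337, 3050.3, 4753 and 2956 (1.36-fold), with array 2076 the lowest.

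Scap gave 6669.7, 6496, 3241, 3358, 3471, 3632, 3881 and 2576. The 2 high arrays were again 2074 and 2076, and the other 6 kept within 1.51-fold of each other. Without array 2074 or 2076 its inner range was 1.19-fold, and without 2194, 2195 or 2199 it was 1.94-fold to 1.99-fold. The much weaker second probe set of Scap did not share the pattern, with 368 and 430.4 on that pair and a range of 104 to 871 on the others.

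Srebf2, the SREBP gene most tied to cholesterol synthesis, gave 9788, 14923, 24359, 8473, 9516, 9986, 26316 and 11112. Arrays 2194 and 2198 were high, and the other 6 lay between 8473 and 14923. Its inner range of 2.56-fold was 1.57-fold when either of that pair was left out. Its other probe set was below the floor on all 8 arrays, so it gave no second reading. Srebf1, more tied to fatty acid synthesis, gave 3949, 2728, 6124, 5342, 5181, 4874, 3209.9 and 3999 (1.66-fold), lowest on arrays 2076 and 2198. The arrays highest for Srebf2 and for Scap were thus different ones.

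**Figure D3:**
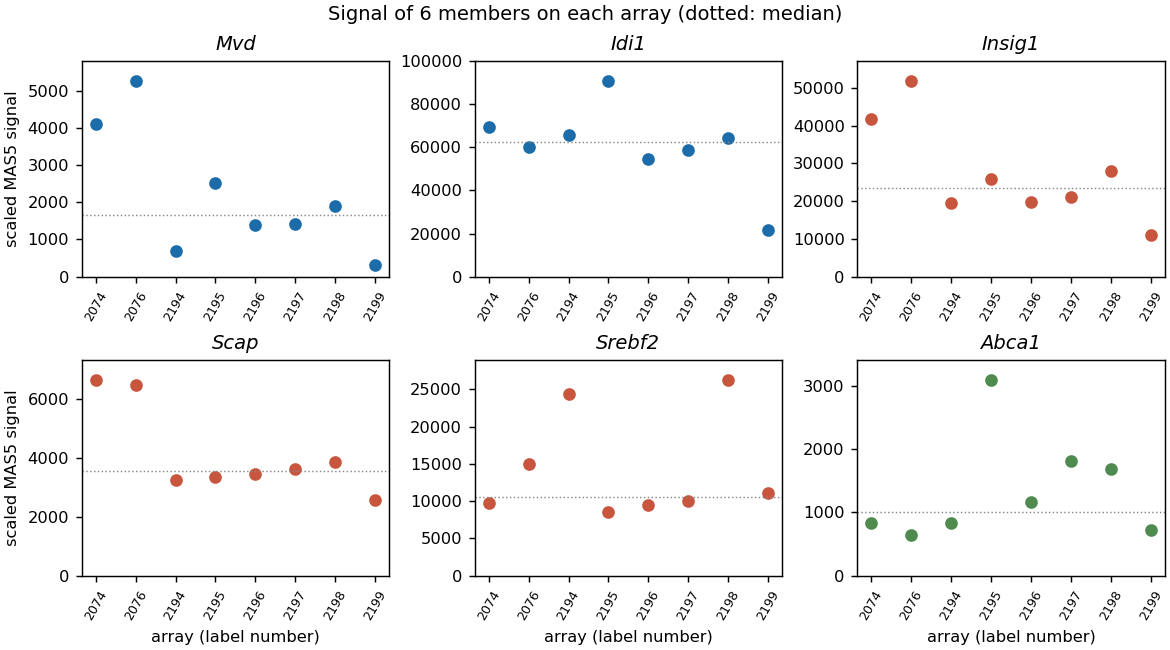
Scaled MAS5 signal (linear axis from 0) of Mvd, Idi1, Insig1, Scap, Srebf2 and Abca1 on each array, with the gene's median dotted. Mvd, Insig1 and Scap are highest on arrays 2074 and 2076, Srebf2 on 2194 and 2198, and Abca1 on 2195. Idi1 is far lower on array 2199, at 21863, than on the others, and highest on 2195, at 91055.

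Of the handling genes, Abca1 had the widest inner range. ABCA1 exports cholesterol to lipoproteins and is switched on by sterols through the LXR receptors. It gave 825, 646, 830.2, 3106, 1171, 1823, 1692 and 722, with an inner range of 2.53-fold (full range 4.80-fold). Arrays 2195, 2197 and 2198 were the highest. Its next probe set, which was weaker, put array 2195 lowest (307) and array 2199 highest (1074), so the 2 disagreed on which arrays were high. With the mean of its probe sets the inner range was 1.6-fold, and no handling gene reached 2-fold.

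Stard4, a carrier of free sterol inside the cell, gave 2575, 3624, 2523, 3608, 2576, 3736, 4848 and 2813 (1.45-fold). Npc2, which hands cholesterol over inside the lysosome, gave 31580.1, 27486, 35538, 22009, 24178, 22068, 22885 and 22683 (1.43-fold), with 5 arrays within 22009 to 24178. Soat1, which esterifies cholesterol for storage, gave 9034, 9049, 7544, 6032, 7537, 10191, 7047 and 9352 and had the smallest inner range of the handling genes, 1.33-fold. Lipa, the lysosomal acid lipase that frees cholesterol from esters, gave 6140.3, 3255, 3995, 3151, 3659.6, 3794, 4235 and 5009.8 (1.54-fold). No array was the highest of the 8 in more than 1 of the 5 handling genes.

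Averaged by role, the synthesis enzymes were low on 3 arrays. The mean log2 distance of the enzymes from their own medians was 0.18, 0.19, -0.21, 0.17, -0.33, 0.07, 0.14 and -0.35, with an inner range of 0.50. Arrays 2194, 2196 and 2199 were the 3 below 0. On array 2196 only 2 of the 19 enzymes lay above their own median, on 2194 and 2199 5 each, and on the other 5 arrays 11 to 15. Among all measured genes those shares were 46.6% on array 2196, 52.5% on 2194 and 47.8% on 2199. The mean of the 9 granulosa markers, taken the same way, was lowest on array 2196 (-0.60), followed by 2076 (-0.24) and 2199 (-0.22), and was 0.04 on 2194, and its part in the enzyme means was not tested. The mean of the 5 regulators was 0.28, 0.30, 0.20, 0.01, -0.01, -0.01, 0.38 and -0.33, with an inner range of 0.31. That of the 5 handling genes was 0.13, -0.06, -0.02, 0.20, -0.05, 0.26, 0.25 and -0.03, with an inner range of 0.30, or 0.14 with the mean of each gene's probe sets. Array 2199 was the lowest for enzymes and for regulators but not for handling genes, where 2076 was. Array 2195 stood at 0.17 for the enzymes, the same as its mean over all measured genes. These differences between arrays were not tested, as the arrays have no groups.

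**Figure D4:**
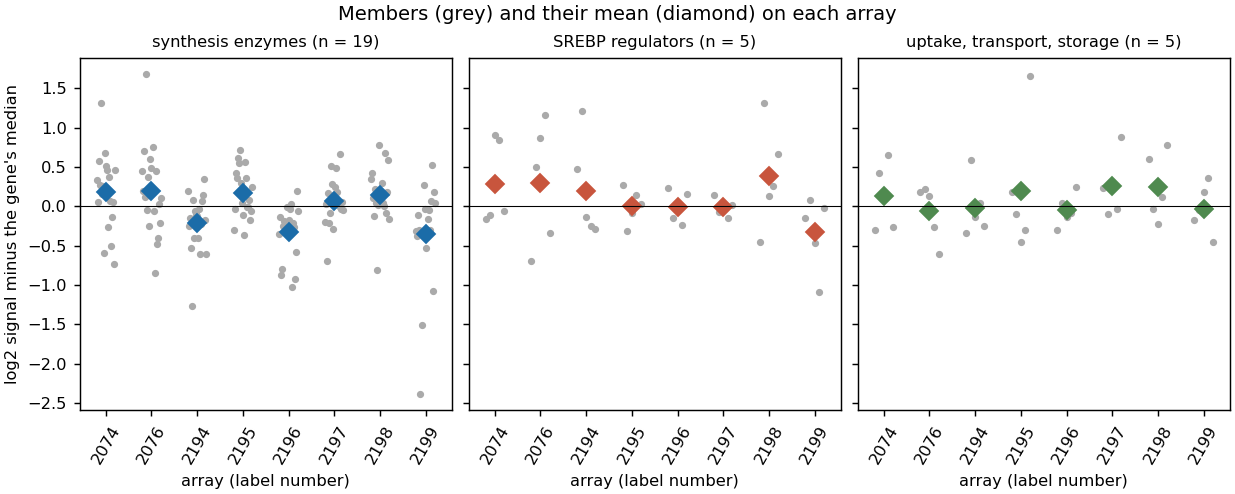
Log2 signal minus the gene's median for each member (grey points) and the mean of the role group (diamonds) on each array, for 19 synthesis enzymes, 5 regulators and 5 handling genes. The enzyme means are below 0 on arrays 2194 (-0.21), 2196 (-0.33) and 2199 (-0.35) and above 0 on the other 5 arrays.

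The pair 2074 and 2076 carry label numbers apart from the run 2194 to 2199, and what sets them apart is not given in the labels. Both lay above all 6 other arrays in 7 of the 29 members (24.1%): Insig1, Lss, Msmo1, Mvd, Mvk, Scap and Sqle. Among all measured genes this held for 13.7%. Both lay below the other 6 in 3 members (10.3%), Ggps1, Nsdhl and Sc5d, against 14.4% of all measured genes. The mean of the pair exceeded that of the other 6 by 2.05 on the log2 scale in Mvd, 1.22 in Insig1, 0.98 in Scap and 0.86 in Mvk. It was below by 0.91 in Abca1 (log2 difference -0.91), which did not separate the arrays fully. Scaling altered this little. With no scaling or quantile normalization Acat1 joined the high genes, Sc5d left the low ones in both, and Cyp51 entered them under quantile normalization. Among all measured genes the high and low shares were then 16.1% and 11.8% with no scaling, and 15.4% and 11.4% under quantile normalization. Taking the mean of probe sets left 6 high (Insig1, Lss, Msmo1, Mvd, Sqle and Soat1) and 2 low (Abca1 and Cyp51), against 12.8% and 13.3% of all measured genes. The beta-actin ratio given above was highest on this pair, while the Gapdh ratio was not. Of the 6 leukocyte markers, the receptor gene Csf1r was lowest there (179 and 526, against 871 to 1892), whereas Lyz2 was highest on 2074 (5458, against 1497 to 4595 on the others) and Cd74 (654 and 782) lay within the range of the others, 360.2 to 823. The mean log2 deviation of those 6 was -0.34 and -0.33 on the pair and -0.36 to 0.18 elsewhere. The granulosa markers Inha (90489 and 70008, against 26704 to 54107) and Foxl2 (10427 and 8109, against 3572 to 6919.8) were highest on the pair. None of the other measured granulosa markers had both arrays above the rest. Cyp19a1 gave 6419 on 2074 and its lowest value, 988, on 2076, against 3582 to 20565 elsewhere. Fst gave 97205 and 110679, against 82526 to 180166. The mean of the 9 granulosa markers was 0.47 on 2074 and -0.24 on 2076. The part of these values in the differences was not tested.

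Probe sets of the same gene often disagreed on which array was high. For 15 members with more than 1 measured probe set, the brightest and the next shared the highest array in 3 and the lowest array in 4, and shared neither in 10. Over the 2658 genes of that kind on the array, the highest was shared in 19.8%, the lowest in 17.0% and neither in 66.8%. Idi1 and Ggps1 matched at both ends. The next probe set of Ggps1 did not put both 2074 and 2076 below the other arrays, however (488 and 586, against 505 to 1073). Lss was high on arrays 2074 and 2076 in both its probe sets, with 1542 and 1987 in the weaker one against 239 to 1169 on the other arrays. Mvk was not, since array 2198 was highest in its next probe set. Sc5d was contradictory, because its brightest probe set was low on the pair and the third was high there (4182 and 4587, against 1788 to 3501). In Nsdhl array 2198 was the highest in one probe set (18189.6) and the lowest in the other (1191). That other probe set was not low on the pair (2273 and 2373, against 1191 to 2635). Stard4 and Soat1 were above the other 6 arrays on 2074 and 2076 in their next probe sets but not in their brightest. For Stard4 the margin was small, 1634 on 2074 against 1628 on 2195. Cyp51 was below the other 6 on the pair in its next probe set (5280.1 and 6039, against 6761 to 9642) but not in its brightest. For Mvd, Insig1, Msmo1 and Sqle only 1 probe set was listed, so no second reading was available.

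**Figure D5:**
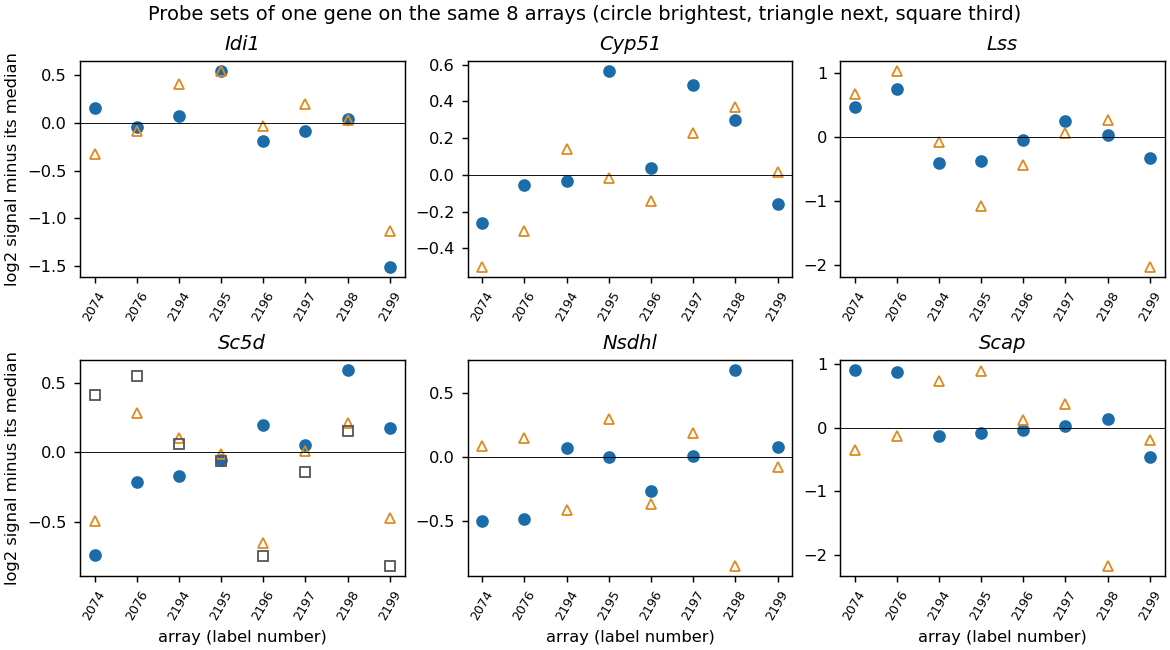
Log2 signal of each measured probe set minus its own median on each array, for 6 members (circle the brightest probe set, triangle the next, square the third). In Idi1 both probe sets are lowest on array 2199, and in Lss both are highest on 2074 and 2076, while in Sc5d, Nsdhl and Scap the probe sets go opposite ways on some arrays.

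Relations of Insig1 to 4 other members were examined within arrays 2194 to 2199, because 2074 and 2076 formed a separate cluster in Insig1. That choice was made after the signals were seen, and r with the pair included is not given. The r and p values thus belong to arrays picked afterwards and hold for arrays 2194 to 2199 only. On the pair Insig1 was highest (41803 and 51914), whereas Abca1 lay below its median of 1000.4 (825 and 646). The positive r with Abca1 given below thus cannot be carried over to the pair. Idi1, Stard4 and Srebf2 had arrays 2074 and 2076 on opposite sides of their medians. Pearson's r over these 6 arrays was 0.93 with Idi1 (exact permutation test, two-sided, p = 0.0361, Benjamini-Hochberg adjusted over 4 relations 0.108) and Spearman's rho was 0.54 (p = 0.297 by exact permutation, adjusted 0.396). With Abca1, r was 0.77 (exact p = 0.0542, adjusted 0.108) and rho 0.83 (exact p = 0.0583, adjusted 0.206). With Stard4, r was 0.62 (exact p = 0.181, adjusted 0.241) and rho 0.77 (exact p = 0.103, adjusted 0.206). With Srebf2, r was 0.24 (exact p = 0.721, adjusted 0.721) and rho -0.03 (exact p = 1, adjusted 1). None passed an adjusted 0.05. Without arrays 2198 and 2199, the farthest from the median of Insig1, r over 4 arrays was 0.89 with Idi1, 0.93 with Abca1, 0.72 with Stard4 and -0.57 with Srebf2. Leaving out array 2199 alone lowered r with Idi1 from 0.93 to 0.55 and r with Srebf2 to 0.17, and raised r with Stard4 to 0.87. Without array 2198 alone r was 0.43 with Stard4 and -0.13 with Srebf2, and without 2195 alone it was 0.49 with Srebf2.

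Of the other genes of the pathway on the list, 26 were measured. At least 2-fold was reached by 6 of the 26, with a median inner range of 1.63-fold, against 29.6% and 1.71-fold for all measured genes. The widest was Nr1h2, an LXR gene, at 3.57-fold, but it was below the floor on 6 arrays and gave 1074 and 1060.5 on arrays 2074 and 2076. Apoe, a lipoprotein component, reached 2.88-fold, with 2494, 1394, 301, 938, 597, 484, 1090.5 and 549. Scarb1, the HDL receptor through which rodent ovarian cells take up cholesterol esters, gave 45986, 27987, 9210.4, 17600.5, 10307, 21929, 20598 and 14161 (2.72-fold). It was high on arrays 2074 and 2076 and lowest on 2194 and 2196. The SREBP-cleaving proteases went different ways, with Mbtps1 highest on array 2074 (3817) and Mbtps2 lowest there (3486).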

How the data were processed

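The deposited table holds signal intensity on a linear scale, made by the authors with MAS5 per the submitters' processing notes. The sources used here name no version. Trimmed of 2% at either end, the array means were all 1500.5 to 1500.6. Total RNA had been column-purified, biotin-labelled and hybridised to 1 array per sample, per the labels. No detection calls were used.

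Signals were log2-transformed and arrays were brought to one median, taken over the probe sets that exceeded the array median on all 8. Values under the array's 40th percentile were raised to it (the floor, 273 to 471). A gene counted as measured if a probe set exceeded the array median on 2 arrays or more, and its brightest such probe set stood for it. This left 10501 of 14217 named genes. Of 31099 probe sets, 20826 outside the 57 controls had 1 gene symbol, and 436 had several and were left out. Printed signals are scaled and not floored, and ranges are taken after the floor.

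No array was assigned to a group, so no test between groups was made and precision is limited by having 8 arrays. The members and lists were chosen with earlier results of these data known. By rule, all members are named, with all 8 values for the 4 widest and the narrowest of each role and for Idi1, Insig1, Insig2, Srebf1, Srebf2, Scap, Stard4, Abca1 and Npc2, and further genes of the pathway by the 3 widest. All 8 values of Pmvk and Fdps were given beyond that rule. Mbtps1, Mbtps2, Plin2, Vldlr and the genes of fatty acid synthesis were added after their values were seen. The 5 relations planned had Hmgcs1 as anchor, which was not listed, and Insig1 was put in its place afterwards. The limit of the relations to arrays 2194 to 2199 was likewise set after the signals were seen. Alternatives changed the scaling, floor, filter, probe set rule, measure of range and arrays used. Promoter windows are RefSeq's, matched by symbol. The range step was tested on simulated data. Work was done in Python 3.11.15 with numpy 2.4.6, pandas 2.3.3, scipy 1.17.1 and matplotlib 3.10.9.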

Additional observations from a re-analysis of the deposited data

Results flagged for a closer look

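Idi1 on array 2199 was the only value among the 29 members to lie far from the other 7 arrays by Dixon's ratio, at 21863 against 54635 for the next lowest array. Chance marks about 1 in 20 genes in this way, and 6.0% of all measured genes had such an array. The second probe set of Idi1 had its lowest value, 19005, on the same array.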

How the results depend on the processing

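The mean of the synthesis enzymes kept its spread over arrays within 1 SD under all 17 alternatives (inner range 0.38 to 0.55, main value 0.50). Of 7 members at or above 2-fold, 3 were left over arrays 2194 to 2199 alone and 4 to 6 when 1 array was left out, the lowest without array 2076. The share of all measured genes fell with them, from 29.6% to 11.9% (genes and scaling taken over those 6 arrays) and to between 18.7% and 25.1%. Fewer arrays narrow an inner range by construction. With the full range in place of the inner range 19 members passed, against 71.3% of all measured genes, the median of the members was 1.16 (log2) in place of 0.67, and the regulator mean spread over 0.71 in place of 0.31. With probe sets of a gene averaged, the handling genes' mean spread over 0.14 in place of 0.30, Lss reached 2.42-fold, Scap 1.37-fold and Abca1 1.6-fold. Of 492 inner ranges of single members under alternatives, 32 moved by more than the gene's SD, 19 of them under the full range and 7 over arrays 2194 to 2199. No relation of Insig1 passed an adjusted 0.05 under any alternative run, and with 6 arrays the smallest exact p is 0.00139. The 5 relations planned with Hmgcs1 were not run. The floor and the filter mattered little for the members, since 28 of the 29 exceeded the array median on all 8. Their count stayed at 7 with a floor at the 25th percentile, no floor or no filter. A filter asking this of every gene dropped Mvd and left 6 of 28, with an enzyme spread of 0.38. The share of all measured genes moved more, to 39.5% with either floor change, 22.0% with no filter and 19.3% with the strict one. Whether the members' share (24.1% in the main run) lay below or above it thus depended on the filter. No paired analysis was possible because the labels give no groups.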

Other observations

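Enzymes of fatty acid synthesis, which SREBP-1 controls, did not share 1 highest array. Scd, the stearoyl-CoA desaturase, gave 10207, 6176, 5629, 4912, 3230.1, 4344, 4188 and 2304, highest on array 2074 and lowest on 2199. Fasn, fatty acid synthase, gave 9728, 9792, 6939, 11413, 7338, 11684, 7529 and 8218, an inner range of 1.56-fold. Acly, which supplies cytosolic acetyl-CoA to both pathways, gave 15423, 17114, 17938, 34121, 19882, 24916, 22900.2 and 19107, with array 2195 the highest and arrays 2074 and 2076 the lowest. Elovl6, a fatty acid elongase, kept within a full range of 1.49-fold.

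Plin2, which coats lipid droplets, gave 13541, 10276, 19405, 24477, 12921, 11771, 15507 and 9695, highest on array 2195 and lowest on 2199. Vldlr, a lipoprotein receptor, was lowest on array 2199 as well, at 2674 against 5359 to 9617 on the other arrays.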
